A study of Mus musculus with 12 samples.

Results

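Mice of the db/db strain carry a defective leptin receptor, and become obese and diabetic with a fatty liver. Males of this strain aged 8 weeks received MgH2, a powder that gives off H2 on contact with water in the stomach, once a day by gavage, and their controls received Mg(OH)2. The labels give a dose of 0.9 mg/kg for every MgH2 group, while the methods name higher doses. A figure legend of the study also gives 0.9 mg/kg, for db/db mice whose plasma triglycerides were followed up to 7 days. Liver RNA was pooled from 3 mice, and each array held a control pool labelled with Cy3 and an MgH2 pool labelled with Cy5. The 6 arrays described here, of the 12 in the study, are those of 3 and 7 days of MgH2, with replicates 1 to 3 at each time. They were taken by their titles and paired by replicate number, and the value compared is the difference of the log2 ratio of MgH2 to control, 7 days minus 3 days. Since MgH2 pools carried Cy5 throughout, any constant dye bias of a probe is part of each ratio and cancels in the difference.

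Repeated dosing can build up a response, hold it or let it fade, and the comparison of 7 with 3 days asks which of these each gene did. The liver makes most plasma proteins, burns and builds fatty acids, clears drugs and sterols, and sets the iron supply of the body through the hormone hepcidin. It also answers to growth hormone, which reaches it in pulses and drives many genes that differ between males and females. In pieces of tissue, fewer cells of a type and less RNA per cell cannot be told apart.

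Of 39429 probes, 19087 passed the requirement of standing well above background in Cy3 and Cy5 alike on each of the 6 arrays, and the 15060 of them with a gene symbol covered 11807 genes. Limma, fitted to the 9 arrays of 1, 3 and 7 days with the replicate number as a block, called 0 probes different between 7 and 3 days (0%) at an adjusted p under 0.05. An unadjusted p under 0.05 was found for 1578 probes, or 8.27%. The t-test of the methods gave 750 such probes and 0 after adjustment, and 1 probe, that of Hamp2, was called after normexp background correction and loess. Normexp was run with an offset of 50 added to each signal, which draws the ratios of dim probes toward 0. Differences were mostly small, with a median absolute value of 0.062 (log2) and 15 probes beyond 1, which is 2-fold. Of these 15, 8 were higher and 7 lower at 7 days. The 95% interval of a difference had a median half-width of 0.17, or 0.13 among probes above the median signal and 0.23 among those below it. Arrays of 3 days lay on 2 slides and those of 7 days on 2, of which 1 slide held replicates 2 and 3 of 3 days with replicates 1 and 2 of 7 days. With the slide added to the block the calls stayed at 0, with 1144 probes at an unadjusted p under 0.05. In that fit replicate 1 of 3 days and replicate 3 of 7 days carry no weight in the difference. Each is the only array of the 6 on its slide. The difference then rests on the shared slide, with the arrays of 1 day setting what the replicate numbers share. The interval lay within 0.5 of 0 for 16521 probes (86.6%) and wholly beyond 0.5 for 5 probes, those of Hamp2, Hamp, Ppp1r3g, Flywch2 and Tfrc. Since no difference passed the test, the genes below are given with their values and not as changed between the times.

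**Figure D1:**
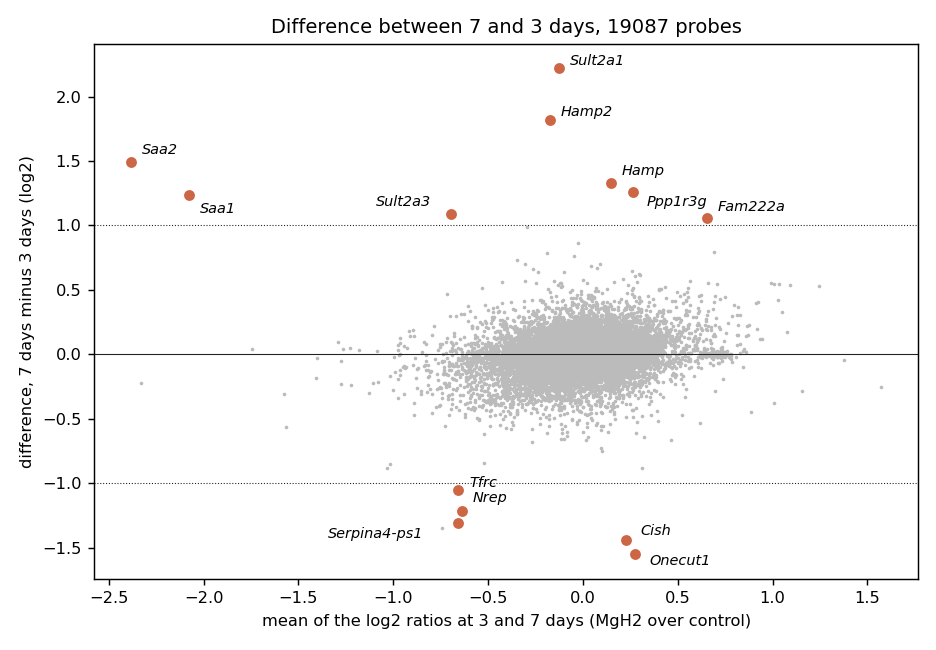
Each point is 1 of 19087 probes, with the mean of its log2 ratios at 3 and 7 days on the horizontal axis and the difference, 7 days minus 3 days, on the vertical axis (log2). Dotted lines mark 2-fold, and the 13 named points are the probes with a gene symbol beyond it, from Sult2a1 at 2.22 to Onecut1 at −1.55.

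What the replicate numbers share was read from the channels. Over the 500 probes that varied most among the control pools of 1 day, control pools of the same number at 3 and 7 days differed by a median of 0.090 to 0.15 on the log2 scale, and control pools of different numbers by 0.38 to 0.66. The MgH2 pools differed by 0.24 to 0.38 whatever their numbers. Control pools of one number were thus closer to each other across the times than MgH2 pools were, while the sources used here do not state that the times shared control mice. A difference paired by number therefore compares 3 MgH2 pools at each time, with the control pool nearly cancelled. Ratios of the 2 times are not independent of each other, and a ratio against 0 carries the spread of only 3 control pools.

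The hepcidin genes come first, since the only call under any setting was that of Hamp2. Hepcidin, the product of Hamp, is the liver hormone that blocks iron export from other cells, and mice carry a near copy, Hamp2. The log2 ratio of Hamp2 was 0.35, −1.28 and −2.32 at 3 days and 2.17, 0.31 and −0.28 at 7 days. Within each number the ratio was higher at 7 days, while the groups overlapped because the numbers lay far apart. The difference was 1.82, or 3.53-fold (standard error 0.18, unadjusted p = 4.9e-05, limma adjusted p = 0.34, with a 95% interval of 1.38 to 2.26). It was between 1.71 and 1.93 with a replicate left out, and was called after normexp and loess (difference 1.78, adjusted p = 0.027). With no replicate block its standard error was 1.02 (unadjusted p = 0.11, limma), so the small p rests on the pairing by number.

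In the MgH2 channel itself, the signal of Hamp2 was 5.99, 6.05 and 5.19 at 3 days and 8.05, 7.55 and 7.22 at 7 days, in log2 signal per 1000000, and the times did not overlap. The control signal was 5.64, 7.33 and 7.50 on the arrays of 3 days and 5.88, 7.23 and 7.49 on those of 7 days, so control pool 1 was the low one both times. The MgH2 pools at 7 days stood near the higher control pools, and those at 3 days near or below the lowest. With the slide in the block the difference was 1.43. On the slide that held both times, where only replicate 2 is present at both, the MgH2 signal was 6.05 and 5.19 at 3 days and 8.05 and 7.55 at 7 days.

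Hamp followed the same order. Its log2 ratio was 1.12, −1.42 and −1.26 at 3 days and 1.65, 0.24 and 0.55 at 7 days, higher at 7 days in each of the 3 pairs, with a difference of 1.33, or 2.52-fold (standard error 0.30, unadjusted p = 0.0040, limma adjusted p = 0.41). With no replicate block the standard error was 0.84 (unadjusted p = 0.15, limma). The MgH2 signal of Hamp was 6.47, 5.88 and 5.02 at 3 days and 6.97, 7.48 and 6.72 at 7 days, again without overlap, although the ratios overlapped. Mean log2 ratios at 1, 3 and 7 days were 0.78, −0.52 and 0.81 for Hamp and −0.36, −1.08 and 0.74 for Hamp2. For Hamp the value at 7 days was thus close to that at 1 day. The transcripts of Hamp and Hamp2 are so alike that the probes cannot be taken to tell them apart, so the pair counts as 1 observation.

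The promoters of the pair are printed because BMP and STAT signals are known to drive hepcidin. Each run, from RefSeq on GRCm38.p6, covers 250 bases before the start of the gene and 30 after it. Capitals mark the letters GGCGCC, the core of a BMP-responsive element, and TTCNNNGAA, the STAT motif. Each motif reads the same on both strands.
Hamp (chr7:30944000-30944279, minus strand): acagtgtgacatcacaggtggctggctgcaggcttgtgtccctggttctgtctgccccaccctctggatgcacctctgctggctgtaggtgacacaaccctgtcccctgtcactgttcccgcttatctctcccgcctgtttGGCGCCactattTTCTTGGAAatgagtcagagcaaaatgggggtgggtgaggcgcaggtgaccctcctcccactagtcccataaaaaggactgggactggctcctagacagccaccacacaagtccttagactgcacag
Hamp2 (chr7:30924152-30924431, minus strand): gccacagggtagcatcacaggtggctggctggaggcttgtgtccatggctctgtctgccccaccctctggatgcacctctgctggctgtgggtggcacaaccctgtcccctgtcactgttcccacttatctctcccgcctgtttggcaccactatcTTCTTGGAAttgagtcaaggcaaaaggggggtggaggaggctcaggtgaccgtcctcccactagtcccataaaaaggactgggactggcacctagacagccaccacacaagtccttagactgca
Both windows hold TTCTTGGAA, which begins 97 bases before the start of Hamp and 94 before that of Hamp2. GGCGCC was found 109 bases before the start of Hamp and not in the window of Hamp2. Among 32851 promoter windows of this length, 7.83% hold the STAT motif and 10.9% hold GGCGCC. A match describes letters and is no evidence of binding.

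A list of iron handling genes, with the hepcidin genes in it, was drawn up after these values had been seen. Id1, a direct target of BMP signalling, had log2 ratios of −0.14, −0.20 and 0.090 at 3 days and 0.80, 0.44 and 0.28 at 7 days. Its 3 arrays at 7 days were all above those at 3 days, with a difference of 0.59 (standard error 0.28, unadjusted p = 0.077, limma adjusted p = 0.64), and of 0.22 with the slide in the block. Tfrc encodes transferrin receptor 1, through which cells take up iron. On 1 probe its log2 ratio was −0.51, −0.17 and 0.30 at 3 days and −1.84, −0.91 and −0.79 at 7 days, lower at 7 days in all pairs and without overlap. The difference was −1.06, or 2.08-fold lower (standard error 0.22, unadjusted p = 0.0029, limma adjusted p = 0.39). A brighter probe of Tfrc had −0.32, 0.13 and 0.55 at 3 days and −1.28, 0.0030 and −0.20 at 7 days, with a difference of −0.61 (standard error 0.25, unadjusted p = 0.047, limma adjusted p = 0.60). The MgH2 signal of the first probe was 1.12, 1.099 and 1.27 at 3 days and −0.24, 0.34 and 0.10 at 7 days.

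Of the 18 genes in that list, 3 were higher at 7 days at an unadjusted p under 0.05 and 2 were lower, where 4.16% of all 11807 genes were higher and 3.65% lower. Since 2 of the 3 higher ones are the hepcidin genes that prompted the list, the count is a description alone. The list median was 0.041, against 0.0055 for all genes. The ferritin genes Fth1 and Ftl1, which encode the iron store, had differences of −0.013 and −0.019. Slc40a1, the iron exporter that hepcidin blocks, had 0.066, and Tmprss6 and Tfr2, regulators of hepcidin, had 0.019 and 0.049. Bmp6, an upstream signal of hepcidin made by endothelial cells, had −0.098. Smad7, a feedback inhibitor of BMP signalling, had 0.36 (standard error 0.24, unadjusted p = 0.18, limma adjusted p = 0.73). Ireb2 and Aco1, which read the iron content of the cell, made up the rest of those 5 genes, with 0.17 and −0.10.

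**Figure D2:**
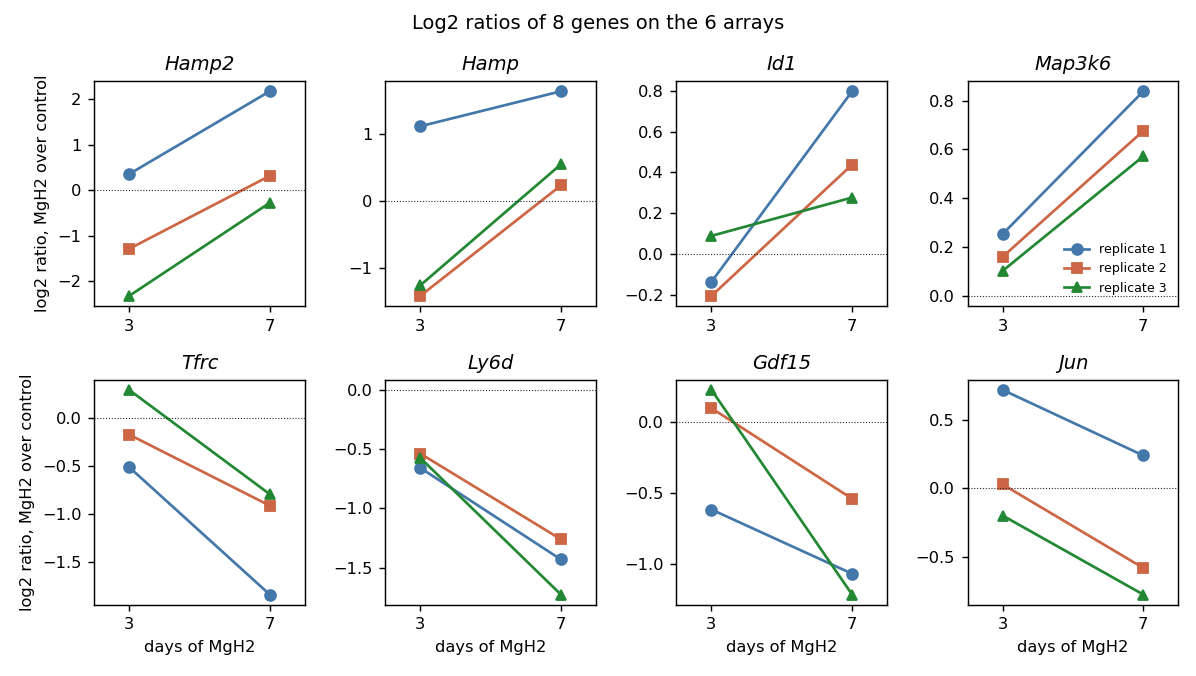
Each panel gives the log2 ratio of MgH2 to control for 1 gene, with a line joining the arrays of 3 and 7 days that carry the same replicate number, on an axis of its own. In Hamp2, Hamp, Id1 and Map3k6 all 3 lines go up, and in Tfrc, Ly6d, Gdf15 and Jun all 3 go down.

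The genes with the smallest unadjusted p among those at least 0.5 apart and alike in all 3 pairs were named by rule, 12 in each direction, out of 35 probes higher and 33 lower that met those terms. None was called, and the adjusted p of the 24 ran from 0.34 to 0.49. Higher at 7 days after Hamp2 came Flywch2, Nr5a1, Map3k6, Trem2, Med14, Zfp267, Vmn1r56, Mfsd9, 2610301B20Rik, Necab3 and Actg2. Map3k6, a stress-activated kinase, had log2 ratios of 0.25, 0.16 and 0.10 at 3 days and 0.84, 0.68 and 0.57 at 7 days, a tight set without overlap whose difference was 0.52 (standard error 0.083, unadjusted p = 6.7e-04, limma adjusted p = 0.34). After normexp and loess it was 0.29. Nr5a1, a nuclear receptor best known from the adrenal gland and gonads, had 0.047, −0.61 and −0.58 at 3 days and 0.53, 0.020 and −0.12 at 7 days, with a difference of 0.52 (standard error 0.072, unadjusted p = 3.1e-04, limma adjusted p = 0.34). Trem2, a receptor of lipid-laden macrophages, had −0.24, −0.82 and −0.13 at 3 days and 0.33, −0.13 and 0.27 at 7 days. Its groups did not overlap and its difference was 0.55 (standard error 0.088, unadjusted p = 6.8e-04, limma adjusted p = 0.34).

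Of these 12 genes, 9 were dim, with mean signals between 22.3 and 45.7, where Hamp2 had 12485. After normexp and loess the differences of these 9 were 0.065 to 0.27. The offset of 50 shrinks ratios at such signals in any case, so these values do not test the differences. In several of them the control channel carried part of the difference. Necab3 differed by 0.30 in the MgH2 channel and by −0.37 in the control channel, and Actg2, a smooth muscle actin, by 0.46 and −0.32. Flywch2 differed by 0.56 and −0.30. For Hamp2, Map3k6 and Nr5a1, the control channel differed by at most 0.045. Brighter probes of Med14 and 2610301B20Rik had differences of 0.030 and 0.14, well under the 0.51 and 0.51 of the probes named.

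Lower at 7 days were Jun, Zfp81, Olfm1, Tmprss9, Ly6d, Themis, Tfrc, Arid3a, Cidea, Csnk1g1, Gdf15 and Ankmy1. Ly6d, a small surface protein of the Ly6 family, was far brighter than most of them, with log2 ratios of −0.66, −0.54 and −0.57 at 3 days and −1.43, −1.26 and −1.73 at 7 days. It was below control on all 6 arrays and lower still at 7 days, without overlap. The difference was −0.88, or 1.85-fold lower (standard error 0.18, unadjusted p = 0.0022, limma adjusted p = 0.36), and the control signal differed by 0.0049. At 1 day its mean ratio was −0.089. Without 1 replicate the difference lay between −0.96 and −0.75, and with the slide added as a block it was −0.57.

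Gdf15, a stress hormone that lowers appetite, had log2 ratios of −0.62, 0.095 and 0.22 at 3 days and −1.07, −0.54 and −1.21 at 7 days. Each pair was lower at 7 days although the groups overlapped, and the difference was −0.84, or 1.79-fold lower (standard error 0.21, unadjusted p = 0.0072, limma adjusted p = 0.47). It was −0.54 without replicate 3 and −0.54 with the slide in the block, 2 settings that both take nothing from replicate 3 of 7 days. Jun, a subunit of the AP-1 factor, had 0.72, 0.029 and −0.20 at 3 days and 0.24, −0.58 and −0.77 at 7 days, each pair lower at 7 days by a similar amount, with a difference of −0.55 (standard error 0.087, unadjusted p = 6.4e-04, limma adjusted p = 0.34). Egr1, another immediate early gene, had 1.29, −0.023 and −0.64 at 3 days and 0.084, −0.59 and −0.83 at 7 days, with a difference of −0.65 (standard error 0.21, unadjusted p = 0.020, limma adjusted p = 0.53). Themis, a gene of T cell development, had 0.22, −0.36 and −0.50 at 3 days and −0.40, −1.08 and −0.83 at 7 days and a difference of −0.56 (standard error 0.12, unadjusted p = 0.0029, limma adjusted p = 0.39). The other lower genes, Zfp81, Olfm1, Tmprss9, Arid3a, Csnk1g1 and Ankmy1, differed by −0.61 to −0.51 and were dim, with mean signals from 23.2 to 52.1. After normexp and loess their differences were −0.24 to −0.073, where the offset of 50 again shrinks the ratios in any case. Other probes of Zfp81, Csnk1g1 and Olfm1 gave −0.18, −0.17 and at most −0.12. In Zfp81 replicate 1 of 3 days stood apart from the other arrays in both channels.

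Cidea, a lipid droplet protein that rises in fatty liver, had ratios set largely by its control pools. Its log2 ratio was 0.21, −2.52 and −1.54 at 3 days and −0.39, −2.75 and −2.41 at 7 days, so that replicate 1 stood apart at both times. The MgH2 signal was −1.18, −1.52 and −0.80 at 3 days and −1.73, −1.64 and −1.86 at 7 days, all low. The control signal was −1.39, 1.01 and 0.74 and −1.34, 1.11 and 0.55, with control pool 1 as low as the MgH2 pools. The difference between the times was −0.57 (standard error 0.14, unadjusted p = 0.0065, limma adjusted p = 0.46). Cidec, its relative, had 0.66, −1.57 and −0.74 at 3 days and 0.58, −1.76 and −1.28 at 7 days and a difference of −0.27 (standard error 0.10, unadjusted p = 0.035, limma adjusted p = 0.58).

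**Figure D3:**
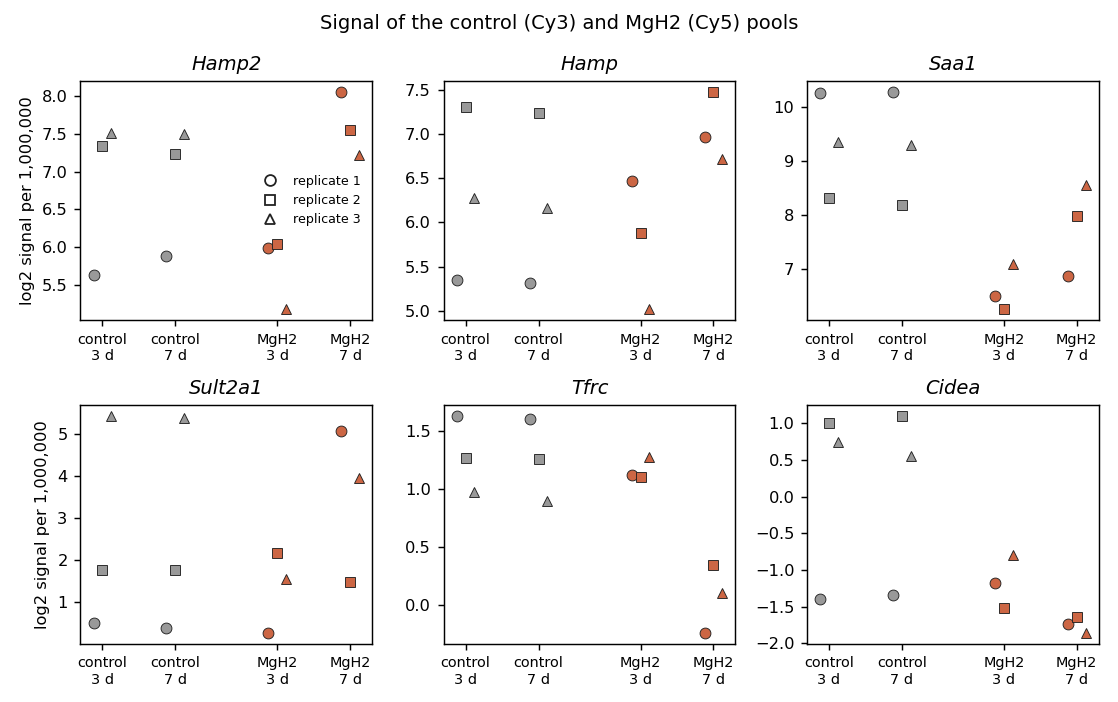
Each panel gives the signal of 1 gene in log2 signal per 1000000, in the 3 control pools (grey) and the 3 MgH2 pools (orange) of each time, with the marker showing the replicate number. The control pools repeat their order at 3 and 7 days in all 6 panels, and the MgH2 pools of Hamp2, Hamp, Tfrc and Cidea do not overlap between the times.

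The widest differences in size came from genes that varied strongly between pools. Sult2a1, a sulfotransferase of steroids that is high in female mice, had log2 ratios of −0.23, 0.40 and −3.87 at 3 days and 4.68, −0.30 and −1.43 at 7 days. Its difference of 2.22 had a standard error of 0.94, 2 of the 3 pairs were higher and the groups overlapped (unadjusted p = 0.054, limma adjusted p = 0.61). Its control pools alone ran from 0.50 to 5.44 at 3 days. Without replicate 1 the difference was 0.87 and without replicate 2 it was 3.68. Sult2a3, a near relative of nearly the same sequence, had −0.30, −0.54 and −2.87 at 3 days and 2.14, −0.55 and −2.03 at 7 days.

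Onecut1, a liver transcription factor under growth hormone control, had log2 ratios of 2.39, −0.65 and 1.42 at 3 days and −0.82, −0.98 and 0.30 at 7 days. All 3 pairs were lower at 7 days, by amounts from small to very large, and the difference was −1.55 (standard error 0.59, unadjusted p = 0.037, limma adjusted p = 0.59). It was −0.73 without replicate 1 and −0.75 with the slide in the block. Cish, a feedback inhibitor that STAT5 switches on after each growth hormone pulse, had 2.11, −0.78 and 1.51 at 3 days and −1.61, −0.91 and 1.03 at 7 days. Its difference was −1.44, with a standard error of 0.82 (unadjusted p = 0.13, limma adjusted p = 0.67), and without replicate 1 it was −0.30. Its MgH2 signal was 3.56, 0.27 and 2.05 at 3 days and −0.19, 0.087 and 1.42 at 7 days, so pools of the same time differed more than the times did. Socs2, another such inhibitor, had 1.61, −0.91 and 0.35 at 3 days and −0.96, 0.068 and −0.060 at 7 days and a difference of −0.67 (standard error 0.61, unadjusted p = 0.31, limma adjusted p = 0.80).

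The promoter of Cish is shown because STAT motifs lie at its start, with the same capitals as above.
Cish (chr9:107296409-107296688, plus strand): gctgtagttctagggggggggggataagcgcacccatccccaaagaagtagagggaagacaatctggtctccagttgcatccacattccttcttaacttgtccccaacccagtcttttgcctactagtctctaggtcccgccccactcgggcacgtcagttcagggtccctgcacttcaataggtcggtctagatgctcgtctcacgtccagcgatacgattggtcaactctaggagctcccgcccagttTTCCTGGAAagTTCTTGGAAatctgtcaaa
The window holds 2 STAT motifs, TTCCTGGAA and TTCTTGGAA, both within the 30 bases after the start, and no GGCGCC.

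A list of growth hormone-responsive genes, also drawn up after the values had been seen, had 16 genes tested. Of them, 8 differed by more than 0.5 between the times, where 71 of all 11807 genes did. At an unadjusted p under 0.05, 0 were higher and 3 lower, beside 4.16% and 3.65% of all genes. The list median was −0.27, with −0.30, −0.063 and −0.25 in the 3 pairs, and Sult2a1 and Sult3a1 stood on the higher side. Without replicate 1 the median was −0.056. Slco1a1, an organic anion transporter of the male liver, had −0.92, 2.003 and 1.18 at 3 days and −2.27, 1.77 and 0.11 at 7 days and a difference of −0.89 (standard error 0.29, unadjusted p = 0.021, limma adjusted p = 0.53), or −0.19 with the slide in the block. Mup20, a male urinary protein of a family whose members share sequence, had 0.69, 0.39 and 0.85 at 3 days and −0.87, 0.67 and 0.20 at 7 days and a difference of −0.64. Keg1 had 0.040, −0.63 and −0.046 at 3 days and −1.23, −0.52 and −0.73 at 7 days and a difference of −0.62 (standard error 0.24, unadjusted p = 0.044, limma adjusted p = 0.60). Igf1, Igfals, Ghr and Stat5a, the hormone axis itself, lay between −0.11 and −0.012, and Stat5b had 0.059. The list was built around genes seen to move, so its count is a description alone.

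Ppp1r3g, a glycogen-targeting subunit of protein phosphatase that follows feeding, had log2 ratios of 0.70, −1.33 and −0.48 at 3 days and 2.66, 0.12 and −0.10 at 7 days. All 3 pairs were higher at 7 days, and the difference was 1.26, or 2.4-fold (standard error 0.29, unadjusted p = 0.0043, limma adjusted p = 0.41). After normexp and loess it was 0.82. Fam222a had −0.17, 0.43 and 0.11 at 3 days and 1.29, 1.02 and 1.24 at 7 days, without overlap, and a difference of 1.06 (standard error 0.35, unadjusted p = 0.023, limma adjusted p = 0.54), or 0.52 after normexp and loess. Nrep, with 1.56, −1.47 and −0.18 at 3 days and −1.35, −1.39 and −1.0003 at 7 days, and Serpina4-ps1, with 0.59, −0.90 and 0.29 at 3 days and −2.68, −0.33 and −0.93 at 7 days, were beyond 2-fold lower on the mean, but in 1 of the 3 pairs each was higher at 7 days, and without replicate 1 they differed by −0.37 and −0.33. A pair of probes without a symbol made up the rest of the 15. After normexp and loess Onecut1, Nrep, Serpina4-ps1, Tfrc and Sult2a3 were also below 2-fold, at −0.73, −0.67, −0.81, −0.81 and 0.42. Their mean signals ran from 68.7 (Onecut1) to 198 (Tfrc), where the offset of 50 also shrinks ratios. Hamp2, Hamp, Sult2a1, Cish, Saa1 and Saa2 stayed beyond 2-fold.

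Serum amyloid A, which the liver secretes in inflammation, had ratios below 0 on all 6 arrays, with only replicate 1 far below at 7 days. Saa2 had log2 ratios of −4.77, −2.21 and −2.40 at 3 days and −4.10, −0.13 and −0.67 at 7 days. Saa1 had −3.76, −2.06 and −2.26 at 3 days and −3.41, −0.22 and −0.74 at 7 days. The difference was 1.495 for Saa2 (standard error 0.72, unadjusted p = 0.082, limma adjusted p = 0.64) and 1.24 for Saa1 (standard error 0.61, unadjusted p = 0.088, limma adjusted p = 0.65), the 2 genes share most of their sequence, and the groups overlapped through replicate 1. In the MgH2 channel Saa1 had 6.50, 6.26 and 7.09 at 3 days and 6.88, 7.98 and 8.56 at 7 days, while its control pools had 10.28, 8.19 and 9.30 on the arrays of 7 days. Of 26 acute phase genes tested, 24 had a difference above 0, as did 6224 of all 11807 genes, with a median of 0.11 and 0.15, 0.23 and 0.0041 in the pairs, and 2 had an unadjusted p under 0.05, both higher, where 4.16% of all genes were. Within the slide that held both times the list median was −0.048. The median ratio of the list was −0.40 at 3 days and −0.27 at 7 days. Apcs, serum amyloid P, had −0.69 at 3 days and −0.48 at 7 days, and Mt1, a metallothionein, 0.76 at 3 days and 0.99 at 7 days.

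Growth and fading between the times were read from the probes called for the mean of 3 and 7 days, since this mean does not use the difference. Limma called 4114 probes higher than 0 for that mean (21.6%) and 5970 lower (31.3%). The block takes the spread of the control pools out of the error of such a mean, and without it the numbers were 3174 and 4662. A constant dye bias cannot be told apart from an effect of MgH2 in a ratio against 0, so they are no count of genes that MgH2 moved. With the deposited ratios, centred by the array software and not on channel totals, the split was 5098 higher and 4913 lower, and after normexp and loess 4973 and 4465. At 3 days alone 2383 probes were higher and 4015 lower, and at 7 days 3062 and 4435. Of the 10084 probes called for the mean, 0 grew and 0 faded by the test of the difference. The 95% interval of the difference lay within 0.5 for 9127 of them (90.5%), which are called held here, against 86.6% of all probes, and the other 957 (9.49%) were undecided. Most means were smaller than this limit. Over 1 probe a gene the median ratio at 3 days was 0.18 among the 2672 genes higher for the mean and −0.19 among the 3715 lower, so for most genes an interval within 0.5 leaves room for a full fade.

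Among genes whose mean ratio was called and beyond 0.5, 206 were higher with MgH2, and 141 of these (68.4%) had a larger ratio at 7 days. The median growth was 0.028, with 0.0091, −0.020 and 0.11 in the pairs. On the other side, 297 genes were lower, and 211 of them (71.0%) stood further from 0 at 7 days, with a median of 0.092 and 0.094, −0.090 and 0.23 in the pairs. In replicate 2 both medians went the opposite way. An unadjusted p under 0.05 with growth was found for 22 of the higher and 35 of the lower genes, and with shrinkage for 1 and 7. The interval held 145 and 183 of these genes within 0.5. Over all genes called for the mean, 64.1% of 2672 higher and 58.0% of 3715 lower ones stood further from 0 at 7 days. An unadjusted p under 0.05 with growth was found there for 193 and 246 genes, and with shrinkage for 65 and 94.

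The 12 largest means in each direction, a set chosen after the values had been seen, show the range. Inhbb, the beta B subunit of activin and inhibin, had log2 ratios of 0.39, 1.28 and 0.61 at 3 days and 1.37, 1.17 and 1.38 at 7 days and a difference of 0.55 (standard error 0.20, unadjusted p = 0.033, limma adjusted p = 0.58). It was 0.33 without replicate 1, 0.88 without replicate 2 and 0.14 with the slide in the block. Il17d, with 0.87, 0.89 and 0.91 at 3 days and 1.05, 0.83 and 1.13 at 7 days, differed by 0.12 and held. Luc7l2, with means of 0.85 at 3 days and 0.87 at 7 days, and Il17d had nearly the same ratio at 1 day (0.75 and 0.84), and the part of dye bias was not tested. Akr1c18, a progesterone-reducing enzyme, had 1.36, 1.27 and 1.27 at 3 days and 0.65, 1.29 and 1.09 at 7 days, and its difference was −0.29 (standard error 0.15, unadjusted p = 0.097, limma adjusted p = 0.65). It was dim, with a mean signal of 44.0, and its mean ratio was already 1.37 at 1 day. Here too the part of dye bias was not tested.

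Of the 12 largest lower means, 4 belonged to enzymes of fatty acid synthesis, Fasn, Elovl6, Scd1 and Scd3. Fasn, fatty acid synthase, had log2 ratios of −1.05, −2.41 and −1.84 at 3 days and −0.84, −2.07 and −2.27 at 7 days. These were low on all 6 arrays, with means of −1.76 at 3 days and −1.72 at 7 days and a difference of 0.041 (95% interval −0.42 to 0.50). The stearoyl-CoA desaturases Scd1 and Scd3 had differences of 0.051 and −0.050, and both held. Elovl6, a fatty acid elongase, had −1.42 at 3 days and −1.73 at 7 days, with a difference of −0.31 (standard error 0.17, unadjusted p = 0.12, limma adjusted p = 0.67). Of 23 genes of de novo lipogenesis, 21 were called lower for the mean and 18 held, where 3715 of all 11807 genes were called lower and 5872 held. The list median was −0.52 at 3 days and −0.56 at 7 days, and 0 genes had an unadjusted p under 0.05 for the difference. The control pools differed widely for these genes, with 2.73, 4.35 and 4.04 for Fasn at 3 days.

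**Figure D4:**
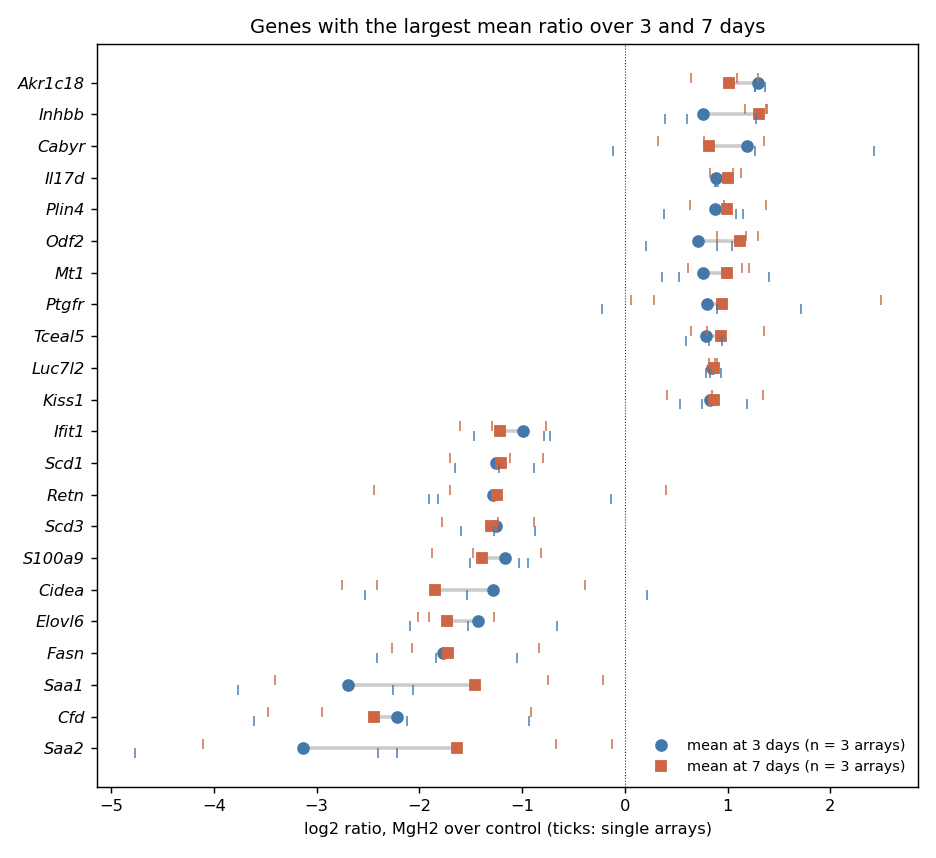
For 22 of the 24 genes with the largest mean log2 ratio over 3 and 7 days, circles give the mean at 3 days, squares that at 7 days and ticks the single arrays (log2 ratio of MgH2 to control). Saa1 and Saa2 lie nearer 0 at 7 days, the mean of Inhbb lies farther from it (a difference that is 0.14 with the slide in the block), and Fasn, Scd1 and Scd3 nearly where they were at 3 days.

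Cholesterol synthesis genes, which SREBP-2 drives, had ratios slightly higher at 7 days on the mean. Of 24 genes, 22 had a difference above 0, where 6224 of all 11807 genes did, with a median of 0.12 and 0.39, −0.10 and 0.076 in the pairs, so replicate 2 went the other way. Without replicate 1 the list median was −0.021, and with the slide in the block it was 0.00036. Srebf2, the gene of SREBP-2 itself, had a difference of 0.27 (standard error 0.12, unadjusted p = 0.062, limma adjusted p = 0.62). Stard4, a carrier of cholesterol, had 0.0076, −0.24 and −0.52 at 3 days and −0.28, −0.64 and −0.78 at 7 days, lower in each pair, with a difference of −0.32 (standard error 0.055, unadjusted p = 0.0012, limma adjusted p = 0.34), and was the only gene of the list with an unadjusted p under 0.05.

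Lists of fat-burning genes had nearly the same median ratios at both times. Of 27 genes of mitochondrial fatty acid oxidation, 0 were higher and 0 lower at an unadjusted p under 0.05, and all differences lay between −0.17 and 0.099, with a median of 0.0037. The median was −0.032 for 26 peroxisomal genes and −0.025 for 6 genes of ketone body synthesis. Peroxisomal differences ran from −0.42 to 0.073, with 0 genes higher and 1 lower at that level, beside 4.16% and 3.65% of all genes. Of 39 targets of PPAR alpha, the fatty acid-sensing nuclear receptor, 0 were higher and 5 lower at that level, 3.65% of all genes being lower. Those were Cidea, Cidec, Fabp1, the liver fatty acid-binding protein (difference −0.19), Fabp2, an intestinal fatty acid-binding protein (−0.13 at 3 days and −0.38 at 7 days), and Vnn1, pantetheinase (−0.14 at 3 days and −0.37 at 7 days). The list median was −0.018, with 0.066, −0.13 and 0.026 in the pairs.

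Genes that the study followed by PCR were read one by one. Ppargc1a, which encodes PGC-1 alpha, a coactivator of mitochondrial and fasting genes, had log2 ratios of 0.39, 0.85 and 0.40 at 3 days and 0.97, 0.56 and 0.71 at 7 days. It was above control on all 6 arrays, 2 of 3 pairs were higher at 7 days, and the groups overlapped, with a difference of 0.20 (standard error 0.16, unadjusted p = 0.25, limma adjusted p = 0.76, 95% interval −0.18 to 0.58). The difference was 0.012 without replicate 1, 0.44 without replicate 2 and −0.039 with the slide in the block. A second, dimmer probe had means of 0.74 and 1.28, with a difference of 0.54 (unadjusted p = 0.037, limma adjusted p = 0.59). Cpt1a, the gate of fatty acid entry into mitochondria, had 0.26, 0.35 and 0.29 at 3 days and 0.40, 0.34 and 0.45 at 7 days and a difference of 0.099 (95% interval −0.031 to 0.23). A dimmer probe of Cpt1a, with a mean signal of 606, had means of only −0.028 at 3 days and 0.076 at 7 days. Its difference was 0.10 (unadjusted p = 0.17, limma adjusted p = 0.71). Aldh1a1, a retinal dehydrogenase, had 0.11, 0.25 and 0.18 at 3 days and 0.29, 0.25 and 0.24 at 7 days and a difference of 0.079 (95% interval −0.041 to 0.20).

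Apoa2, an HDL apolipoprotein, differed by −0.035 (95% interval −0.15 to 0.086), Acaa1a, a peroxisomal thiolase, by −0.035 (−0.16 to 0.091) and Ppara by −0.075 (−0.26 to 0.11). The intervals of these 3 genes and of Cpt1a and Aldh1a1 lay within 0.5. Fgf21 was not well above background on all 6 arrays and was not tested. Among 28 PGC-1 coactivators and partners, 2 were higher and 0 lower at an unadjusted p under 0.05, close to the 4.16% and 3.65% of all genes. These were Nrf1, a factor of mitochondrial genes, with 0.30, 0.22 and 0.26 at 3 days and 0.42, 0.42 and 0.52 at 7 days and a difference of 0.20 (standard error 0.045, unadjusted p = 0.0043, limma adjusted p = 0.41), and Ppargc1b, whose difference of 0.43 was −0.43 in the control channel and 0.0077 in the MgH2 channel.

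Among 23 genes of bile acid synthesis and transport, 3 were higher and 2 lower at an unadjusted p under 0.05, beside 4.16% and 3.65% of all genes. Akr1d1, a reductase of bile acid synthesis, had 0.00079, 0.092 and −0.0097 at 3 days and 0.24, 0.32 and 0.31 at 7 days, without overlap, and a difference of 0.26 (standard error 0.051, unadjusted p = 0.0019, limma adjusted p = 0.36). Slco1a4, a transporter, had 0.49 at 3 days and 0.83 at 7 days, and Abcg8, one part of the sterol exporter, 0.12 at 3 days and −0.071 at 7 days. Of 30 drug-metabolising cytochromes P450, 25 had a difference above 0, where 6224 of all 11807 genes did, with a median of 0.088 and 0.14, −0.0081 and 0.088 in the pairs. Cyp2j5 went against them, with −0.065, −0.30 and −0.49 at 3 days and −0.44, −0.55 and −0.71 at 7 days and a difference of −0.28 (standard error 0.064, unadjusted p = 0.0043, limma adjusted p = 0.41). In 25 genes of gluconeogenesis and glucose use the median was −0.019, and Pfkfb3, which raises glycolysis, had the widest difference, −0.41 (standard error 0.32, unadjusted p = 0.24, limma adjusted p = 0.75).

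Clock genes follow the time of day at which a liver is taken. Of 20 clock and clock output genes, 2 were higher and 0 lower at an unadjusted p under 0.05, where 4.16% and 3.65% of all genes were, with a median of 0.064 and 0.13, 0.010 and 0.047 in the pairs. Besides Ppp1r3g this was Usp2, a deubiquitinase of the clock output, with 1.04, 0.29 and 0.21 at 3 days and 1.40, 0.50 and 0.46 at 7 days and a difference of 0.27 (standard error 0.078, unadjusted p = 0.012, limma adjusted p = 0.50). Cry2, a clock repressor, had −0.065, 0.17 and 0.17 at 3 days and 0.43, 0.29 and 0.29 at 7 days, without overlap. Sampling times are not given in the sources used here. Of 20 immediate early genes, 1, Ccn2, was higher and 2, Egr1 and Jun, were lower at that level, against the same shares, with a list median of 0.019. Nr4a1, an orphan nuclear receptor, had a difference of 0.45 (standard error 0.29, unadjusted p = 0.17, limma adjusted p = 0.71).

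The 29 antioxidant and Nrf2 target genes had a median of −0.019, with 0 higher and 1 lower at an unadjusted p under 0.05, beside 4.16% and 3.65% of all genes, the lower one being Keap1, the inhibitor of Nrf2 (−0.21 at 3 days and −0.36 at 7 days). Hmox1, heme oxygenase, had 0.17, 0.56 and 0.16 at 3 days and 0.79, 0.43 and 0.46 at 7 days and a difference of 0.26 (standard error 0.14, unadjusted p = 0.11, limma adjusted p = 0.66). The 28 genes of the unfolded protein and heat shock response had a median of −0.063, and Hspb1, a small heat shock protein, had −0.31 at 3 days and −0.49 at 7 days. The 40 subunits of oxidative phosphorylation lay between −0.13 and 0.030. Of these, 6 were lower on every array of 7 days than on any of 3 days, beside 3.36% of all genes, while 4.77% of all genes were higher without overlap. Cox7a2, a subunit of cytochrome oxidase, had 0.16, 0.089 and 0.14 at 3 days and 0.044, −0.082 and 0.027 at 7 days.

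**Figure D5:**
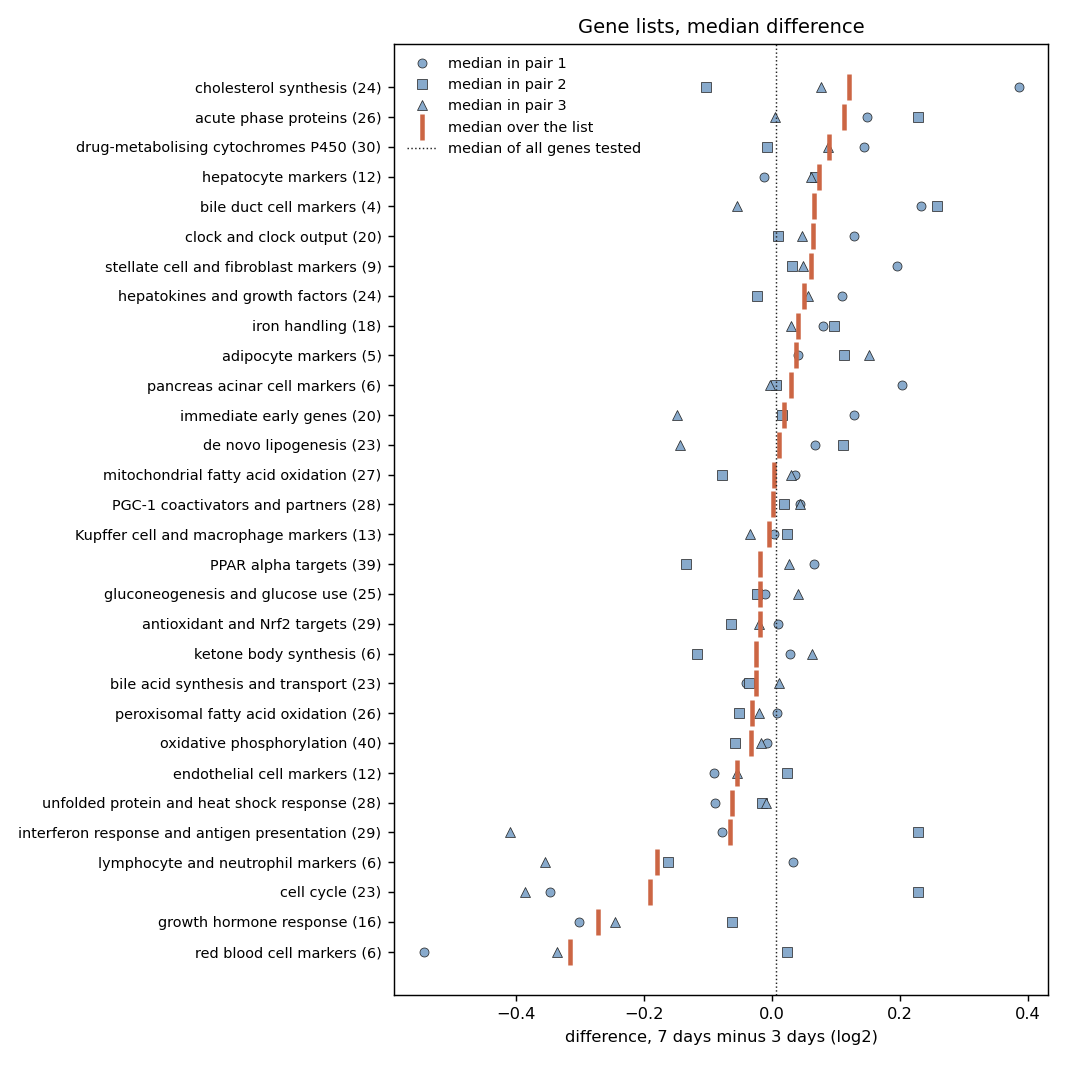
For 30 gene lists, with the number of genes tested in brackets, the bar gives the median difference, 7 days minus 3 days (log2), and the 3 markers the median within each replicate pair. The dotted line is the median of all 11807 genes tested. Most bars lie within 0.1 of it, and the pairs of the interferon, cell cycle and red blood cell lists lie widest apart.

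Lists of immune and cell cycle genes differed mostly between the pairs. The 29 genes of interferon response and antigen presentation were below control at both times (median −0.56 at 3 days and −0.63 at 7 days), and the median difference was −0.077, 0.23 and −0.41 in the 3 pairs. Oas2, an antiviral enzyme, was the only one at an unadjusted p under 0.05 (−0.46 at 3 days and −0.76 at 7 days). The 23 cell cycle genes had medians of −0.35, 0.23 and −0.39, and Mki67, the marker of dividing cells, had −0.56, 0.67 and −0.21 at 3 days and −1.26, 1.09 and −0.98 at 7 days. In both lists replicate 2 was opposite to the others. Of 24 hepatokines and growth factors, 4 were higher and 2 lower at that level, again beside 4.16% and 3.65% of all genes, and 2 of the 4 were Hamp and Hamp2. The rest were Inhbb, Gdf15, Fgl1, a secreted factor of hepatocytes (−0.82 at 3 days and −0.52 at 7 days), and Inhba, the beta A subunit of activin (−0.19 at 3 days and −0.58 at 7 days).

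As the label of liver requires, all 12 hepatocyte markers were well above background, and they summed to 15544 to 16433 signal per 1000000 in the MgH2 pools at 3 days and 15867 to 17832 at 7 days. Alb, albumin, had log2 ratios of 0.21, 0.22 and 0.22 at 3 days and 0.35, 0.39 and 0.40 at 7 days, without overlap, and a difference of 0.17 (standard error 0.051, unadjusted p = 0.017, limma adjusted p = 0.53). Of the 12 markers, 1, Alb, was higher and 1 lower at an unadjusted p under 0.05, beside 4.16% and 3.65% of all genes. Differences of the 12 ran from −0.24 to 0.17, with a median of 0.073. Of 14 Kupffer cell and macrophage markers, 13 were tested, and they summed to 160 to 187 signal per 1000000 in the MgH2 pools at 3 days and 163 to 175 at 7 days, with a median difference of −0.0040. Cd14 alone of them had an unadjusted p under 0.05 (−0.0079, −0.078 and −0.33 at 3 days and 0.50, 0.081 and 0.12 at 7 days). Of 14 lymphocyte and neutrophil markers only 6 were tested, with a median of −0.18 and 0.032, −0.16 and −0.36 in the pairs, and the defining markers Cd3g, Cd8a and Ms4a1 were not well above background on all 6 arrays.

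Red blood cell markers had a median difference of −0.31 over 6 genes of 10, with −0.54, 0.024 and −0.34 in the pairs. They summed to 1213 to 1375 signal per 1000000 in the MgH2 pools at 3 days and 951 to 1368 at 7 days. Hba-a2, an alpha globin, had −0.33, 0.66 and 0.026 at 3 days and −0.79, 0.69 and −0.40 at 7 days, so that replicate 1 was low and replicate 2 high at both times. Their part in the iron genes was not tested. The medians were −0.054 for 12 endothelial markers, 0.061 for 9 stellate cell and fibroblast markers and 0.066 for 4 bile duct markers. Acta2, smooth muscle actin, had −0.33, −0.33 and −0.22 at 3 days and 0.011, 0.26 and −0.11 at 7 days, without overlap, and Spp1, osteopontin, −0.28, −0.48 and −0.28 at 3 days and −0.034, −0.18 and −0.011 at 7 days, with a difference of 0.27 (standard error 0.061, unadjusted p = 0.0039, limma adjusted p = 0.41). For pancreas acinar cells 6 of 22 markers were tested and for adipocytes 5 of 8, with medians of 0.030 and 0.038. Adipoq, Lep and Plin1 were not well above background, and Cfd, adipsin, had −0.93, −3.60 and −2.12 at 3 days and −0.91, −3.47 and −2.95 at 7 days.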

How the data were processed

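Agilent mouse arrays with 2 dyes were read from the scanner files. In these the authors deposited spot intensities (median, local background and processed signals), flags and the log10 ratio of Cy5 to Cy3 from Feature Extraction 10.10.1, as the submitters' processing notes name it. The processed signals had been corrected for background and normalized between dyes within each array. The authors also deposited a table of log2 ratios, which differed from the log10 ratios rescaled to log2 by at most 1.4e-06 and was used as an alternative. On each array, 51.8% to 53.2% of spots were well above background in both channels and 0 were saturated, and the number of arrays limits the precision.

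For the values given here, each channel's processed signal was divided by its total, control spots and outlier flags (165 to 228 spots an array) were left out, and spots of a probe were averaged. Ratios are log2 of Cy5 over Cy3, and a level in 1 channel is log2 signal scaled to a channel total of 1000000. Probes had to be well above background in both channels on the 6 arrays of 3 and 7 days. Limma 3.58.1 (lmFit, eBayes) in R 4.3.3 was fitted to 9 arrays (1, 3 and 7 days) with 1 mean a time and the replicate number as a fixed block, with 4 residual degrees of freedom. Tests were two-sided, and adjusted p-values are Benjamini-Hochberg over 19087 probes. The 3 arrays of 14 days, from another experiment, entered 1 alternative alone. A gene is given by its probe of highest mean signal, except that the genes named by rule carry the probe the rule chose.

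The numbers pair the arrays. Deviations from the time means correlated between arrays of 3 and 7 days of the same number at 0.46, 0.38 and 0.37 over probes, and in Cy3 alone at 0.59, 0.45 and 0.57, but in Cy5 at −0.065, 0.061 and −0.052. The labels and methods do not say what the numbers share, so the pairing rests on these data. P-values of a difference measure the spread between these pools once the block has taken out what each number shares. P-values against 0 leave out the spread of the control pools, which the block takes up.

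The text names the 12 genes in each direction of smallest unadjusted p among those apart by 0.5 or more in 1 direction in all 3 pairs, since none was called, genes that the study followed by PCR, and up to 4 members of each of 28 lists. The members and lists were chosen with earlier results of these data known. A further 2 lists (iron handling, growth hormone response), the probes beyond 2-fold, the largest means and all other genes named were chosen after the values were seen. The fit was tested on simulated data. Promoters came from RefSeq. A few genes that these rules name are not reported here.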

Additional observations from a re-analysis of the deposited data

Results flagged for a closer look

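In 3 of the genes named by rule, the log2 ratios lay on opposite sides of 0 on all arrays of 3 and of 7 days. Flywch2 was below 0 at 3 days and above it at 7 days, with a difference of 0.86. Vmn1r56, a vomeronasal receptor gene, did the same with a difference of 0.56. Zfp81, a zinc finger gene, was above 0 at 3 days and below it at 7 days, with a difference of −0.51. The limma test with Benjamini-Hochberg adjustment called none of these differences, and all 3 probes were dim. Of all 11807 genes, 82 (0.69%) had ratios on opposite sides of 0 in this way. The naming rule asked for a difference of at least 0.5 in 1 direction in all 3 pairs. Such ratios are thus favoured among the named genes, and the share over all genes is no measure for them.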

How the results depend on the processing

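The difference between 7 and 3 days had 0 calls under every alternative run except normexp with loess, which called 1 probe, that of Hamp2. The probes at an unadjusted p under 0.05 numbered 761 with no replicate block, 1401 with the 6 arrays alone, 891 with all 12 arrays and no replicate block, 3559 with no filter on dim probes, 1144 with the slide and replicate block, 550 with the slide alone and 1128 to 1594 with a replicate left out. Calls against 0 varied more. With no replicate block they were 3652 at 3 days and 4860 at 7 days, with the 6 arrays alone 4173 at 3 days, with no filter on dim probes 1825 and 3465, and with the slide and replicate block 2418 and 2731. With a replicate left out they were 1449 to 3460 and 2721 to 4400. Probes called for the mean of both times and held numbered 5521 with no filter, 6054 with the slide and replicate block and 5570 to 6922 with a replicate left out. Undecided probes numbered 131 after normexp and loess, whose offset shrinks the ratios of dim probes. They numbered 1744 with no filter and 137 among probes above the median signal, where 6438 were called for the mean. The mean was called higher in 40.8% of its calls, but in 50.9% with deposited ratios, 49.5% after median centring and 52.7% after normexp and loess.

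Of 390 alternative values of the named genes, 11 turned sign and 1 crossed the threshold, that of Hamp2. With no replicate block the unadjusted limma p was 0.17 for Jun, 0.097 for Nr5a1 and 0.20 for Ppp1r3g. It was 2.0e-04 for Flywch2, 6.6e-04 for Ly6d and 0.0012 for Map3k6. Ppargc1a was −0.039 with the slide and replicate block. With the slide as the only block, and equally within the shared slide, Cidea was 0.46, Apoa2 0.012, Ppara 0.19 and Acaa1a 0.0033. Only replicate 2 is present at both times there, so the control pools compared are not all of the same number. With a replicate left out, Apoa2 lay between −0.077 and 0.016 and Acaa1a between −0.083 and 0.022, both above 0 without replicate 2. The cause was not tested. The median half-width of the 95% interval of a difference was 0.13 above the median signal and 0.23 below it.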
